A study of Rattus norvegicus with 4 samples.

Results

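The cytochrome P450 and steroid hormone genes of the array were the 36 of 1185 spots whose gene name held P450, steroid, steryl, estrogen, estradiol, androgen, glucocorticoid, progesterone or sulfotransferase, whatever the case. They were measured in mesenteric white adipose tissue of female Wistar rats, with 2 control rats and 2 rats treated with oleoyl-estrone (OE), the oleic acid ester of estrone, each on its own nylon cDNA array. OE rats received 10 μmol/kg per day by gavage in 0.2 ml of sunflower oil over 2 days and control rats the oil alone, and tissue sampling followed at 48 h. The age of the rats was not given in the sources used here. The arrays are named control 1, control 2, OE 1 and OE 2, and where a pair of values is given for a group, that of array 1 comes first.

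Cytochromes P450 are heme enzymes of the endoplasmic reticulum and of mitochondria that insert oxygen into steroids, fatty acids and foreign compounds, with electrons handed over by a reductase. In the adrenal and the gonads some of them build steroid hormones from cholesterol, and in liver others break hormones and drugs down. White adipose tissue takes up circulating steroids and interconverts them with dehydrogenases, sulfatase and aromatase, and it answers to estrogens, androgens and glucocorticoids through nuclear receptors. Treatment with an estrone ester therefore raises the question of which of these genes were measurable in the tissue and whether their levels differed after OE.

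Of the 36 genes, 32 stayed under the detection limit on all 4 arrays. A spot was called detected when its adjusted intensity, the spot intensity minus the background in arbitrary units, was at least 2 times the background of its array. That limit was 120 on control 1, 108 on control 2 and 122 on each OE array. NADPH-cytochrome P450 reductase was detected on 2 arrays, steryl-sulfatase, CYP17 and GRP78 on 1 array each, and none of the 36 genes on all 4. Over the whole array 285 of 1185 spots (24.1%) were detected on at least 1 array, against 11.1% of the P450 and steroid genes. Just inside the limit lay CYP17 with 125 on OE 2. Just outside it lay the spot of 3beta-HSD I, II and IV with 120 on OE 1 and 11-beta-HSD2 with 106 on control 2. An adjusted intensity of 0 was recorded for 7 and 6 of the 36 genes on the control arrays and for 8 and 3 on the OE arrays. Where a gene stayed under the limit on all 4 arrays its intensities are given without a fold, although it counts among the ratios below.

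**Figure D1:**
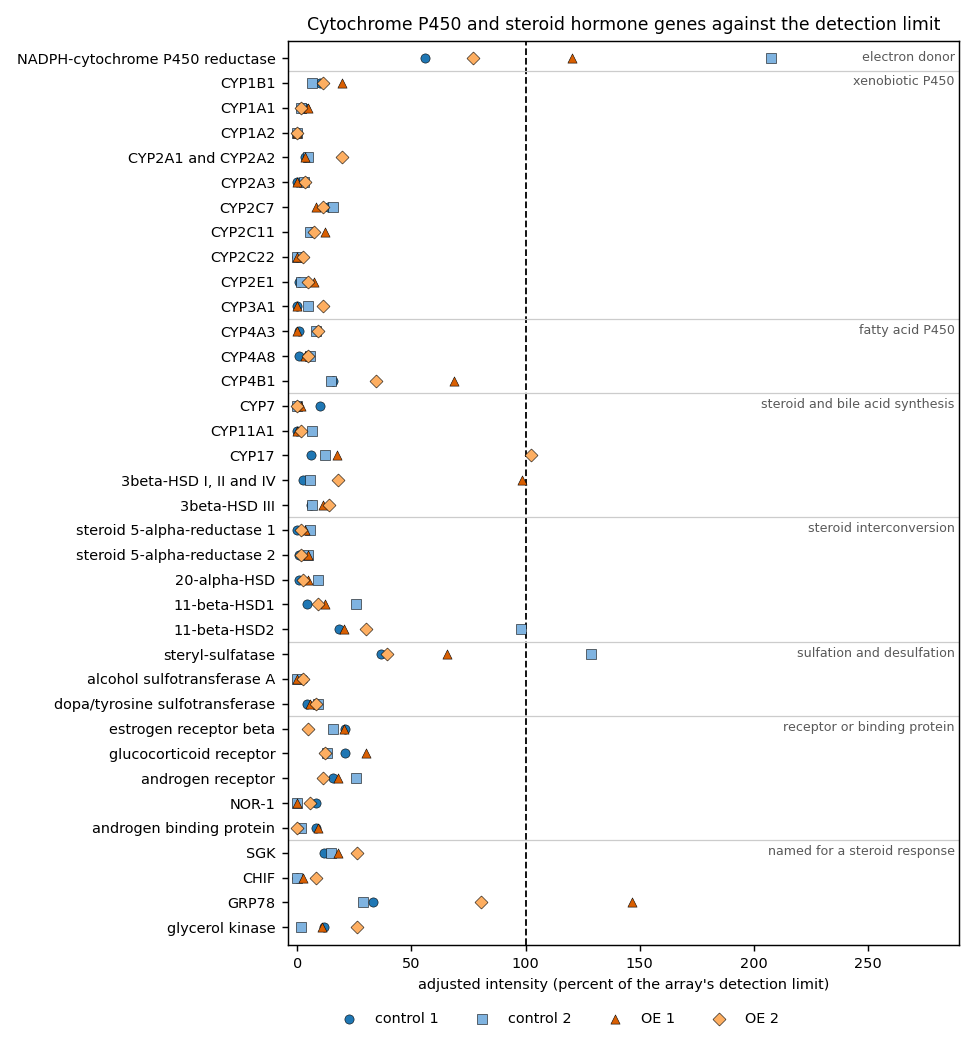
Adjusted intensity of each of the 36 genes as a percent of the detection limit of the array, with 1 point for each array and the limit at 100 (dashed line). Only 5 of the points lie to the right of the line, and the points of most genes sit close to 0.

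The arrays of a group were not alike. Intensities were divided by the 50th percentile of their array, which was 14 and 9 on the control arrays and 22 and 17 on the OE arrays, and are then called array medians. Values under 0.235 array medians were raised to that floor, and a gene was compared when both arrays of at least 1 group lay above it. This held for 922 spots and for 20 of the 36 genes. A gene that entered through 1 group alone was chosen for being higher there, so that counts over these 20 describe the arrays and support nothing. Between the controls 9 of the 20 genes (45%) and 57.6% of the 922 spots were more than 2-fold apart, and between the OE arrays 5 genes (25.0%) and 22.5% of the spots. The adipocyte markers FABP4, LPL and HSL were highest on control 2, and the leukocyte marker CD45 was lowest there, with 7.89 array medians against 145.6 on control 1 and 144.5 and 77.6 in the OE rats. Leptin, another adipocyte marker, was not detected on any array, and neither was any of 4 pancreas markers, whose summed adjusted intensity was between 11 and 27.

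**Figure D2:**
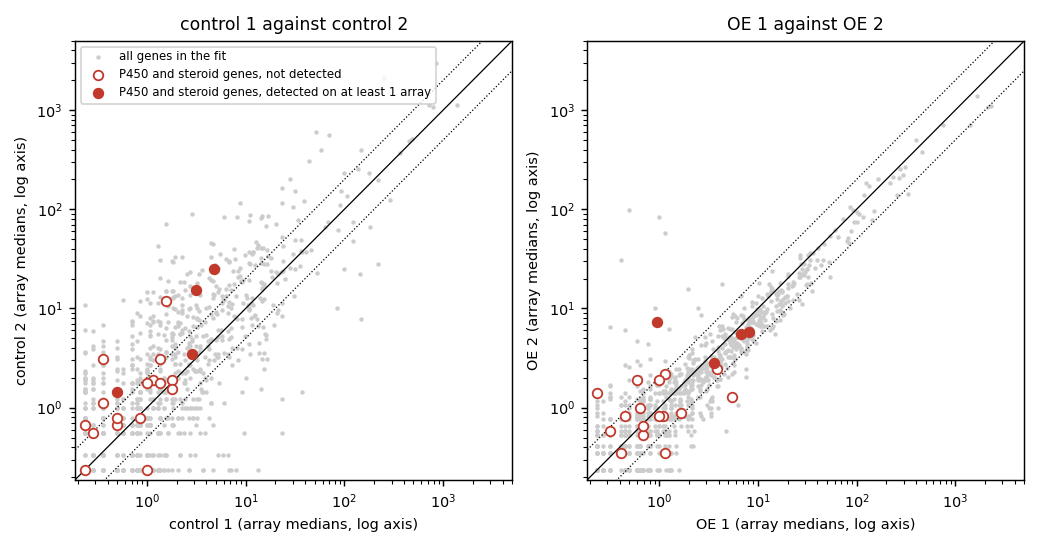
Control 1 against control 2 (left) and OE 1 against OE 2 (right), in array medians on log axes, with the 922 compared spots in grey and the 20 compared P450 and steroid genes in red, filled where detected. The solid line marks equal values and the dotted lines 2-fold differences. The points spread more widely between the controls than between the OE arrays.

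Among the 20 compared genes the ratio of OE to control means was under 0.5 for 7 and over 1.5 for 7, where 18.3% and 18.9% of the 922 spots passed these limits. Shares among 20 genes that are mostly under the detection limit are a description of the arrays. Only 2 of the lower genes (NADPH-cytochrome P450 reductase and steryl-sulfatase) and 2 of the higher genes (CYP17 and GRP78) had been detected on any array. Both OE arrays lay below both controls for 3 of the 20 genes and above both for 4, against 15.8% and 14.1% of all spots compared. The median log2 ratio was 0.05 over the 20 genes and -0.16 over the 922 spots, and without the filter it was -0.32 over the 36 genes and -0.15 over all 1185. The log2 values were fitted with limma, which found 0 of the 20 genes and 0 of the 922 spots (0.0%) at a Benjamini-Hochberg adjusted p under 0.05. At an unadjusted p under 0.05 it gave 1 of the 20 genes and 19 of the 922 spots (2.06%). The adjusted p of the 20 genes lay between 0.957 and 0.989, and their standard errors between 0.57 and 1.19 on the log2 scale. With 2 arrays a group the precision of all these values is low.

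NADPH-cytochrome P450 reductase, which passes electrons from NADPH to the P450 enzymes of the endoplasmic reticulum, was the one gene of the set detected in both groups. Its adjusted intensities were 67 and 224 in the controls and 147 and 94 in the OE rats, and 1 array of each group was over the limit. In array medians the control mean was 14.8 ± 14.2 and the OE mean 6.11 ± 0.815 (SD, n = 2 each), which made a ratio of 0.412. Control 2, with 24.9 array medians, stood above the other 3 arrays, and control 1, with 4.79, lay below both OE arrays, with 6.68 and 5.53. Without control 2 the ratio was 1.28 and without control 1 it was 0.245. With limma the log2 fold change was -0.84 (standard error 0.95), and the adjusted p was 0.957.

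Steryl-sulfatase, which frees estrone and other steroids from their sulfates, was detected on control 2 alone. Its adjusted intensities were 44 and 139 in the controls and 80 and 48 in the OE rats. In array medians control 2 had 15.4, against 3.14 on control 1 and 3.64 and 2.82 in the OE rats, and control 1 lay between the OE arrays. Because both OE arrays were under the limit, each was set to the lowest detected signal of that array. Control 1 was under the limit too but was kept at its measured value, so the result is no strict bound. Controls then came out 1.10-fold higher on the log2 means, a value that was not tested. The measured means were 9.29 ± 8.70 in controls and 3.23 ± 0.575 in OE rats (SD, n = 2 each), with an adjusted p of 0.957 in limma. The 1.10-fold value rested on control 2, since without it no array was over the limit. In measured values the ratio of the OE mean to control 1 alone was 1.03.

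The promoter windows of these 2 genes are shown because the half-site of the estrogen response element, the letters GGTCA on either strand, can be looked for in them. They come from RefSeq on the rat build GRCr8 and run from 250 bases before the start of the gene to 50 after it, with matches in capitals. Por lies at chr12:26635760-26636059 (minus strand) and Sts at chrX:46102510-46102809 (plus strand).
Por: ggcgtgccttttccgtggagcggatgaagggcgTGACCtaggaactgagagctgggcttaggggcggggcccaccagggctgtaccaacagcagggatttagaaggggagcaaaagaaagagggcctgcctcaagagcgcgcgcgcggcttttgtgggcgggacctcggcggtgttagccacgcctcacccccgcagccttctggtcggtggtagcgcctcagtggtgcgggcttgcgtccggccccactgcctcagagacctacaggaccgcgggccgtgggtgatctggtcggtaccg
Sts: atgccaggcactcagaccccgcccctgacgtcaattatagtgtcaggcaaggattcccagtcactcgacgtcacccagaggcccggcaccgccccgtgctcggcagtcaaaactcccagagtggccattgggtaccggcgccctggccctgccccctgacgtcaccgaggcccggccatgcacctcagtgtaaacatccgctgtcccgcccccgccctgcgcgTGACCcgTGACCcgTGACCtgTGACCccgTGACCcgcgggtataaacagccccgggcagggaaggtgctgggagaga
Por held 1 match, 217 bases before the start, and Sts 5, the first of them 27 bases before the start, all on the strand opposite to the gene. A window was found for 22 of the 30 genes with a symbol, 25 windows in all, of which 17 (68.0%) held the half-site. Of all 33469 windows 40.5% did. The full element, GGTCA and TGACC with 3 bases between them, was in 0 of the 25 windows and in 9 of all windows (0.0269%). These matches describe letters and no binding was measured.

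Both 11-beta-hydroxysteroid dehydrogenases had their highest value on control 2 as well. 11-beta-HSD1 regenerates active glucocorticoid in adipose tissue, and 11-beta-HSD2 inactivates it. The adjusted intensities of 11-beta-HSD2 were 22 and 106 in the controls and 25 and 37 in the OE rats, where control 2 came just short of its limit of 108. Those of 11-beta-HSD1 were 5 and 28, and 15 and 11. The remaining steroid-interconverting enzymes, both steroid 5-alpha-reductases and 20-alpha-HSD, had between 0 and 10 on every array and did not enter the comparison. The sulfotransferases, which conjugate hydroxysteroids or dopa and tyrosine with sulfate, were also low, with 0 to 3 for alcohol sulfotransferase A and 5 to 10 for the dopa/tyrosine enzyme.

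In array medians control 2 was the highest array for 15 of the 36 genes (41.7%), and for 41.6% of all spots. Its high values in the reductase, the sulfatase and the 11-beta-HSD genes went with those of the adipocyte markers FABP4, LPL and HSL. Leptin, the remaining adipocyte marker, had an adjusted intensity of 0 on control 2 and was not detected on any array. The summed level of the 4 adipocyte markers was 262.7 and 2231 array medians in the controls and 425.2 and 520.6 in the OE rats, most of it FABP4, with 2115 on control 2. LPL and HSL were also highest there. That of the 4 leukocyte markers was lowest on control 2, with 172.0 and 21.0 in the controls and 178.5 and 94.2 in the OE rats. Most of this sum was CD45 on the other 3 arrays. CD8 and c-fms were lowest on control 2 too, whereas CD4 had 8.00 array medians there and 6.41 on OE 2. Their part in these values was not tested, and in whole tissue fewer cells of a type and less RNA per cell cannot be told apart.

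**Figure D3:**
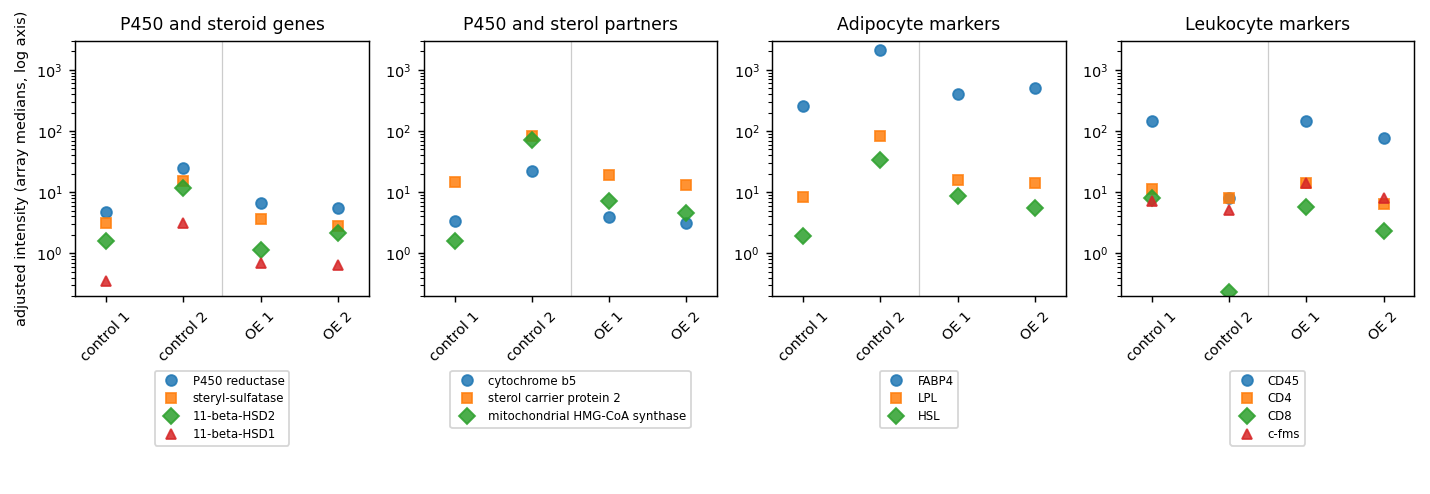
Adjusted intensity in array medians (log axis) on each array for 4 steroid and P450 genes, 3 partner genes, 3 adipocyte markers and 4 leukocyte markers, with control arrays left and OE arrays right of the grey line and CD8 on control 2 drawn at the floor. Each gene of the first 3 panels has its highest point on control 2, where CD45 has its lowest. The genes of the panels were chosen and are not all of their lists. CYP17, GRP78, L-FABP and leptin, which are not drawn, were highest on an OE array. Control 2 was the highest array for 41.7% of the 36 genes and for 41.6% of all spots.

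Among the other genes of the pathway, 19 in all, 7 were detected on at least 1 array, where 24.1% of all spots were. The ratio was under 0.5 for 6 and over 1.5 for 2 of the 18 compared, beside 18.3% and 18.9% of the 922 spots, and limma found 0 at an adjusted p under 0.05 and also 0 at an unadjusted p under 0.05. Their median log2 ratio was -0.87, against -0.16 over the 922 spots. Cytochrome b5, a second electron donor of P450 enzymes, had adjusted intensities of 47 and 198 in the controls and 87 and 53 in the OE rats. Only control 2 was over the limit. With the OE arrays at their lowest detected signals and control 1 as measured, controls came out 1.35-fold higher, which is no strict bound. That value was not tested, and on the measured values the adjusted p was 0.957 in limma. Without control 2 no array was over the limit, and control 1, with 3.36 array medians, lay between the OE arrays, with 3.95 and 3.12. Sterol carrier protein 2, which moves sterols between membranes, was detected on all 4 arrays, with 14.4 and 82.0 array medians in the controls and 19.0 and 13.2 in the OE rats. Its ratio was 0.334, and 1.12 against control 1 alone, which again lay between the OE arrays. Mitochondrial HMG-CoA synthase, the enzyme of ketone body synthesis, had 1.57 and 70.2 array medians in the controls and 7.18 and 4.65 in the OE rats. It was detected on control 2 and OE 1 only. L-FABP, a carrier of fatty acids in liver and intestine and also one of the intestine markers, was detected on OE 2 alone, with an adjusted intensity of 525 against 9 on OE 1 and 0 on both controls. HSP90-beta, the chaperone that holds steroid receptors ready to bind hormone, was also detected on all 4 arrays, with 221.3 and 197.1 array medians in controls and 270.1 and 205.1 in OE-treated rats. Its ratio was 1.14, with an adjusted p of 0.989.

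The steroid receptors of the set, estrogen receptor beta and the androgen and glucocorticoid receptors, stayed far under the limit. No spot of the set was named for estrogen receptor alpha or a progesterone receptor, so nothing can be said of these. Estrogen receptor beta, one of the nuclear receptors that bind estradiol and estrone, had adjusted intensities of 25 and 17 in the controls and 25 and 6 in the OE rats. The androgen receptor had 19 and 28, and 22 and 14. In array medians both OE arrays lay below both controls for these receptors, with means of 1.84 ± 0.073 and 0.745 ± 0.554 (SD, n = 2 each) for estrogen receptor beta. The androgen receptor had means of 2.23 ± 1.24 in controls and 0.912 ± 0.125 in OE rats (SD, n = 2 each). In unscaled intensities this order was not kept, since OE 1 equalled control 1 for estrogen receptor beta and lay between the controls for the androgen receptor. The adjusted p of limma was 0.957 for each of them. The glucocorticoid receptor had 25 and 14 in controls and 37 and 15 in OE rats, and its groups overlapped. Androgen binding protein, a carrier of sex steroids, and NOR-1, an orphan receptor of the same superfamily, had at most 11 on every array.

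Among the receptors outside the set, RXR-alpha, the partner with which many nuclear receptors pair, was detected on control 2, with 143, and on OE 1, with 153, and had 89 on control 1 and 84 on OE 2. The orphan receptor TR4 was detected on OE 1 alone, with 127. The mineralocorticoid receptor, which binds aldosterone and glucocorticoids, had 12 and 6 in controls and 11 and 0 in OE rats.

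Of the enzymes that build steroid hormones, CYP17, which makes the precursors of androgens and estrogens, was detected on OE 2 alone. Its adjusted intensities were 7 and 13 in the controls and 21 and 125 in the OE rats. In array medians OE 2 had 7.35, and OE 1, with 0.955, lay between the controls, with 0.50 and 1.44. The control mean was under the limit, and against the lowest detected signal of the control arrays no fold above 1 could be given. The measured means were 0.972 ± 0.668 in controls and 4.15 ± 4.52 in OE rats (SD, n = 2 each), with an adjusted p of 0.957 in limma. OE 2 was also the one array on which 4 of the 5 intestine markers were detected. Their summed level was 273.1 array medians there, against 1.93 and 1.44 in the controls and 3.14 on OE 1. OE 2 was the highest array for 8 of the 36 genes (22.2%) and for 15.0% of all spots. The part of intestinal RNA in the CYP17 value was not tested.

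The spot of 3beta-HSD I, II and IV, 3 closely related enzymes that turn pregnenolone into progesterone and cannot be told apart on this array, was under the limit on all 4 arrays. Its adjusted intensities were 3 and 6 in the controls and 120 and 22 in the OE rats. Both OE arrays lay above both controls, in unscaled intensities also, but the value of OE 1 was just under its limit of 122. Control 1, with 0.214 array medians, was under the floor, so the spot entered the comparison only through the OE arrays, where it was high. Its unadjusted p of 0.0392 in limma (adjusted p 0.957) therefore supports no difference. 3beta-HSD III, on a spot of its own, had 7 and 7 in the controls and 14 and 17 in the OE rats. It was under the limit on all 4 arrays, and its groups overlapped in array medians. CYP11A1, which starts steroid synthesis by cutting the side chain of cholesterol, had 0 and 7 in controls and 0 and 2 in OE rats. None of the 4 markers of steroid-producing cells (CYP11A1, the lutropin receptor, inhibin alpha and inhibin beta A) was detected, and their summed adjusted intensity was between 10 and 28. Both liver markers were under the limit too, with a sum of 56 on OE 1 against 10 on OE 2 and 4 and 6 in the controls. Their part in the value of the 3beta-HSD I, II and IV spot was not tested. CYP7, the rate-limiting enzyme of bile acid synthesis in liver, had 12 on control 1 and at most 2 on the other arrays.

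The P450 enzymes of foreign compounds and drugs, 10 spots of the CYP1, CYP2 and CYP3 families, were all under the limit, with at most 24 on any array. CYP1A2 was at 0 on all 4 arrays. The spots of CYP2A1 and CYP2A2 and of CYP3A1, as of CYP17, were highest on OE 2, with 24 and 14. CYP2C7, which oxidizes retinoic acid and steroids, had adjusted intensities of 16 and 17 in the controls and 10 and 14 in the OE rats. In array medians the means were 1.52 ± 0.528 and 0.639 ± 0.261 (SD, n = 2 each), without overlap, and the adjusted p was 0.957 in limma. CYP2E1, the ethanol-inducible P450, lay above both controls on both OE arrays, but with 1 and 2 in controls and 9 and 6 in OE rats all values were at most 9 units above the background.

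Of the P450 enzymes that hydroxylate fatty acids, CYP4B1 was higher on both OE arrays than on both controls. Its adjusted intensities were 19 and 16 in the controls and 84 and 42 in the OE rats, all under the limit. In array medians the means were 1.57 ± 0.297 and 3.14 ± 0.953 (SD, n = 2 each), and the adjusted p was 0.957 in limma. The order was the same in unscaled intensities. CYP4A3 and CYP4A8 had between 0 and 11 on every array.

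GRP78, the chaperone of the endoplasmic reticulum whose gene name also lists a steroidogenesis-activator polypeptide, was detected on OE 1 alone. Its adjusted intensities were 40 and 31 in the controls and 179 and 98 in the OE rats. In array medians the means were 3.15 ± 0.415 and 6.95 ± 1.68 (SD, n = 2 each), and the groups did not overlap. The control arrays were under the limit, and against their lowest detected signal no fold above 1 could be given. The adjusted p was 0.957 in limma. Because the groups did not overlap, leaving out any of the 4 arrays could not put the OE mean below the control mean.

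The promoter window of GRP78 (Hspa5) is known for the element through which stress of the endoplasmic reticulum raises the gene, CCAAT and CCACG with 9 bases between them. It is shown for that element, in capitals with the bases between, from chr3:38452766-38453065 (plus strand, GRCr8, RefSeq).
Hspa5: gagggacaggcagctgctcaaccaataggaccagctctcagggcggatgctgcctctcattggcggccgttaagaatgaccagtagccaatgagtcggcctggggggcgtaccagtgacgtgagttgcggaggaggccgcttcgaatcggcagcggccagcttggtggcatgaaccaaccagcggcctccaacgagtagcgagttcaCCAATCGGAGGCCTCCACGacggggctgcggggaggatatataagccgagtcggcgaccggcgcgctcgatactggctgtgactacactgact
The window held 1 match on the plus strand, beginning 43 bases before the start. Of the 33469 windows 22 held the element on either strand (0.0657%), and of the 25 windows of the set only that of Hspa5. The match says nothing of whether the element was in use in these rats.

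The other genes named for a steroid response were under the limit. SGK, a kinase induced by glucocorticoids, had 14 and 16 in controls and 22 and 32 in OE rats, and glycerol kinase, which phosphorylates glycerol, had 14 and 2 in controls and 13 and 32 in OE rats. CHIF, a regulator of the sodium pump that corticosteroids induce, was at 0 on both controls and had 3 and 10 on the OE arrays.

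The count of genes past the ratio limits moved with single arrays and with the scaling, and the filter then let other numbers of genes in. Without control 1 there were 14 lower and 6 higher of 28 genes, beside 313 and 274 of 1011 spots. Without control 2 there were 4 and 8 of 24 genes, beside 126 and 314 of 1044 spots, and without OE 2 there were 7 and 4 of 21 genes, beside 165 and 207 of 1008 spots. Over all genes the median log2 ratio went from -0.16 to 0.63 without scaling and to 0.10 after scaling to the genes detected on all 4 arrays. The lower and higher genes of the set came to 1 and 11 of 21 without scaling, beside 29 and 486 of 954 spots. With the detected genes as the scale they came to 3 and 8 of 20, beside 106 and 246 of 935 spots. Without a filter 10 of the 36 genes were lower and 8 higher, against 17.0% and 17.2% of all 1185 spots.

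**Figure D4:**
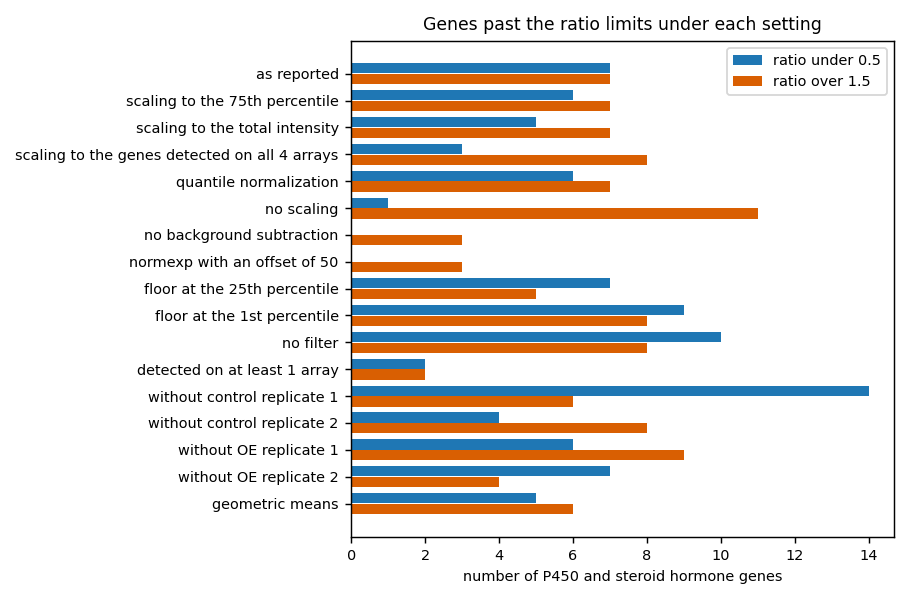
Number of P450 and steroid hormone genes with a ratio of OE to control under 0.5 (blue) and over 1.5 (orange) as reported and under each alternative setting. The lower count runs from 0 to 14 and the higher count from 2 to 11.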

How the data were processed

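Mesenteric adipose tissue RNA of 2 control and 2 OE-treated rats was hybridized as radiolabelled cDNA to Atlas Rat nylon arrays, 1 rat per array, and samples were grouped by their titles. The authors deposited the spot intensity, background intensity and adjusted intensity (spot minus background, 0 where negative) of 1185 spots as their Atlas Image software gave them, not yet scaled. The second set of array columns in each file, 12 columns in all, repeats another array of the series and was not used, nor were the ratio and difference of the software. A table of the whole series with the authors' adjusted intensities under row names without genes served as an alternative for counts over all genes. Whether same-numbered rats shared a litter or day was not stated, and their deviations did not go together (correlation 0.0495 across 922 genes).

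Following the methods, adjusted intensities were scaled to the 50th percentile of the array. Low values were raised to 0.235, the 10th percentile of all values above 0 on the 4 arrays. Filter, ratio limits of 0.5 and 1.5, and the detection limit of 2 times the background are given with the results. The control strength filter of the methods was not repeated. Log2 values were fitted with limma 3.58.1 in R 4.3.3 (lmFit, eBayes, group as the only term, Benjamini-Hochberg adjustment, threshold 0.05). The same step was run on simulated data, where recovery of known changes was required only at a spread below that of these spots. That check does not measure the power of the fit here. With 2 arrays a group the smallest two-sided p of an exact permutation test is 0.333, so none was run. The gene set, the lists of partners and markers, the tests and the alternatives were chosen with earlier results of these data known. Named genes were those detected on at least 1 array, the receptors, sulfatase and sulfotransferases, 3 P450 genes the study lists, and the 3 lowest and 3 highest ratios past the limits without overlap. Other genes with values (both 11-beta-HSD genes, CYP7, CYP11A1, CYP1A2, CYP2E1, CYP2A1 and CYP2A2, CYP3A1, SGK, glycerol kinase, CHIF, the mineralocorticoid receptor and the genes spelled P-450 other than CYP4F5) were chosen after their values were seen. 3beta-HSD III was also chosen after its values were seen. From the lists, 3 spots matched only inside another name were left out. Gene names are those of the array files. Symbols for the promoter windows were assigned by hand from these names, for 30 of the 36 genes. Probe sequences were not used here, and related P450 genes can share signal on a cDNA array.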

Additional observations from a re-analysis of the deposited data

How the results depend on the processing

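limma found 0 genes of the set and 0 spots in all at an adjusted p under 0.05 under each of the 18 alternatives with a test (17 for the set, since the rows of the series table carry no gene names), and its smallest adjusted p lay between 0.171 and 0.999. Under the alternatives that kept every array, limma gave between 0 and 2 genes of the set at an unadjusted p under 0.05. The 2 were among 21 genes without scaling, beside 44 of 954 spots. In the fits with a lone array in a group, its spread was taken from the other group. Counts at an unadjusted p are therefore not given for those fits. With the replicate block the count stayed at 0 genes, with 1 gene of the set and 17 spots at an unadjusted p under 0.05. The intensity trend also gave 0 genes at an adjusted p under 0.05, with 1 gene of the set and 36 spots at an unadjusted p under 0.05.

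The counts of 7 lower and 7 higher genes of the set, and of 169 lower and 174 higher spots, moved with the processing. Scaling to the genes detected on all 4 arrays gave 3 lower genes and 106 lower spots. No scaling gave 1 lower and 11 higher genes and 29 lower and 486 higher spots. No background subtraction gave 0 and 3 genes, 10 and 76 spots, and normexp 0 and 3 genes, 10 and 82 spots. The floor at the 25th percentile gave 110 higher spots, with fewer spots compared. Detected spots alone gave 2 and 2 genes, 57 and 38 spots. When each array was left out in turn, lower genes ran from 4 to 14 and higher genes from 4 to 9, lower spots from 126 to 313 and higher spots from 184 to 314. Without control 2 the ratio of NADPH-cytochrome P450 reductase turned to 1.28 and that of steryl-sulfatase to 1.03, and without OE 2 that of CYP17, from measured means with both controls under the limit, turned from 4.27 to 0.982. With each array left out in turn these ratios ran from 0.245 to 1.28, from 0.209 to 1.03 and from 0.982 to 8.31. With these exceptions, the 4 detected genes kept the direction of their ratio under the alternatives run. The filter settings could not change a ratio, and of the floor settings only the 25th percentile changed one, that of CYP17, to 4.21. The share of lower spots among those past the limits was 49.3% as reported, 5.63% without scaling and 30.1% after scaling to the genes detected on all 4 arrays. The detection limit, which 32 of the 36 genes did not reach, bounds what can be said of them.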

Other observations

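A further 10 P450 genes are spelled P-450 in the files and so fell outside the set. All 10 were under the detection limit on the 4 arrays. Aromatase, which makes estrogens from androgens, had adjusted intensities of 4 and 9 in the controls and 0 and 9 in the OE rats. Of the CYP4F enzymes, which hydroxylate fatty acids and leukotrienes, CYP4F5 had 34 and 17 in controls and 51 and 87 in OE rats. CYP4F6 had 29 and 65, and 65 and 76. CYP4F1 had 3 and 7, and 4 and 55, while CYP4F4 had 21 and 6, and 0 and 11. CYP4F5 and CYP4F1 were highest on OE 2, the array with the intestine markers, in unscaled intensity and in array medians. CYP4F6 was highest on OE 2 unscaled and on control 2 in array medians, and CYP4F4 was highest on control 1 in both. The part of intestinal RNA in these values was not tested. CYP2C23, an epoxygenase of arachidonic acid, had 15 and 6 in controls and 43 and 35 in OE-treated rats, with both OE arrays above both controls and an adjusted p of 0.957 in limma. Sterol 14-demethylase, an enzyme of cholesterol synthesis, had 27 and 39 in controls and 44 and 37 in OE rats. CYP2J3, CYP3A9 and CYP4A1 had at most 18. Of the 10 genes 6 entered the comparison, 1 with a ratio below 0.5 and 2 above 1.5, beside 18.3% and 18.9% of the 922 spots, and limma found 0 at an adjusted p under 0.05 and 0 at an unadjusted p under 0.05.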
